A study of Homo sapiens with 35 samples.

Results

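A set of 9 genes that mark or drive the mesenchymal state was followed in U-87 MG cells, an established human glioblastoma line. They are VIM, FN1, CDH2, CD44, ZEB1, ZEB2, SNAI1, SNAI2 and TWIST1. They were taken by symbol from the 62696 rows of the count table, and all 9 were among the 16879 genes with enough counts to test. The choice was made with results in view: VIM had the most counts of any gene and took a larger share of them with TWEAK, so its levels with and without TWEAK are given as a description, without a test.

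The RNA-seq data held 12 libraries in 4 groups of 3. These were control cells left untreated, control cells given TWEAK at 10 ng/ml for 48 h, ETS1 KD (knockdown) cells given TWEAK and NFKB2 KD cells given TWEAK. Every KD library was treated, so no group shows the effect of a KD without TWEAK. The KDs were made by CRISPR/Cas9 from a lentiviral vector, and the labels do not say which guide the RNA-seq and RNA Pol II libraries carried. ChIP-seq peak lists were used for p52 (8 libraries), ETS1 (4) and RNA Pol II (8), with 2 libraries a condition. The p52 lists covered control cells without and with TWEAK and cells with either of guides 1 and 2 against ETS1, given TWEAK. The ETS1 lists covered control cells in both states, and the RNA Pol II lists the same 4 conditions as the RNA. The authors did no STR typing of their own to check the identity of the line.

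Epithelial-mesenchymal transition is the programme by which cells lose tight contacts and gain motility, and glioblastoma cells with a mesenchymal expression profile use many of the same genes. ZEB1, ZEB2, SNAI1, SNAI2 and TWIST1 are transcription factors that repress epithelial genes such as CDH1 (E-cadherin). VIM (vimentin, an intermediate filament), FN1 (fibronectin, a matrix glycoprotein), CDH2 (N-cadherin) and CD44 (a hyaluronan receptor) are products of cells in that state. TWEAK, a cytokine related to TNF, can trigger non-canonical NF-κB signalling, which trims the precursor protein encoded by NFKB2 to the DNA-binding subunit p52.

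Total counts were between 28384201 and 40192606 a library. ETS1 was at 77.5 ± 8.70 CPM (counts scaled to a common library size, mean and SD, n = 3) in TWEAK-treated control cells and at 33.0 ± 4.78 CPM in ETS1 KD cells, a log2 fold change of -1.23 (SE 0.149, edgeR adjusted p = 0.00112). NFKB2 was at 290 ± 55.4 CPM in the same control cells and at 91.0 ± 14.7 CPM in NFKB2 KD cells, a log2 fold change of -1.67 (SE 0.176, adjusted p = 0.00339). The labels of both KDs thus matched their transcripts. The cells held little of the astroglial markers GFAP (0.0581 to 0.377 CPM) and AQP4 (0 to 0.0287 CPM), while SLC1A3 was at 36.8 to 60.0 CPM. CDH1 was at 0 to 0.126 CPM, KRT5 and SOX10 had no counts in any library, and the leukocyte marker PTPRC reached at most 0.0941 CPM. Not every marker of these kinds was as low. The epithelial marker EPCAM reached 2.08 CPM, the oligodendroglial marker OLIG2 1.79 CPM and the immune marker CD68 1.76 CPM.

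VIM had more counts than any other gene in all 12 libraries. It took 0.927%, 0.929% and 0.932% of the counts in the untreated control libraries and 1.60%, 1.54% and 1.64% in the TWEAK-treated ones. The share was thus higher in every treated control library than in any untreated one, with means of 0.929% ± 0.00277 and 1.59% ± 0.0513 (SD, n = 3). In the ETS1 KD libraries it was 1.46%, 1.68% and 1.59%, which spans the range of the treated controls. In the NFKB2 KD libraries it was 1.27%, 1.36% and 1.14%, between the untreated and the treated controls and overlapping neither. The 95% Wilson interval of each of these shares was at most 0.0092 percentage points wide, and it covers counting error only. In bulk RNA, a change in the number of cells that make a transcript and in its amount per cell cannot be told apart. The plot of the VIM share shows the 12 values.

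**Figure D1:**
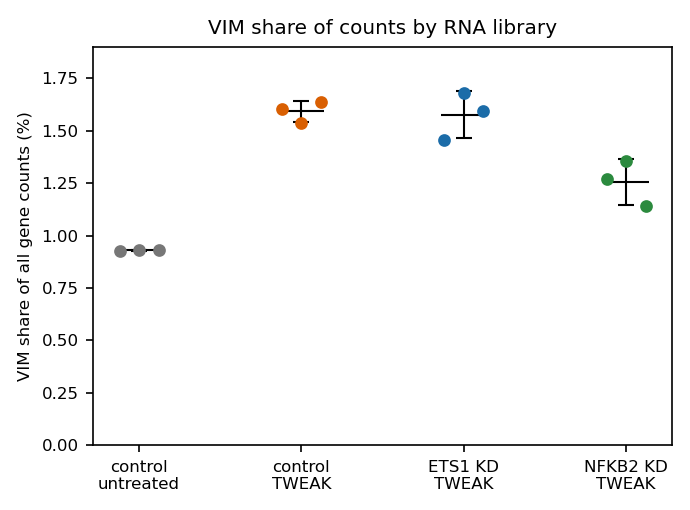
Share of all gene counts taken by VIM (y axis, %) in each of the 12 RNA-seq libraries, grouped on the x axis. Points are libraries, and the bar and whiskers are the mean and SD of 3 libraries. The 3 untreated libraries sit at 0.927% to 0.932%, below all treated libraries, and the NFKB2 KD libraries (1.14% to 1.36%) lie below the treated controls.

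The second most counted gene was GAPDH, which encodes a glycolytic enzyme, in 9 of the libraries, and MT-CO1 or FTH1 in the others. VIM had 1.11 to 1.29 times its counts in untreated cells and 1.57 to 2.52 times in the treated libraries. Per length, VIM was not the first gene. On the TPM scale, which divides counts by the summed exon length, it ranked between 6 and 15. TMM-scaled levels of VIM were 9140.2, 9108 and 9087.5 CPM in untreated cells, 16368, 15375 and 16286 CPM with TWEAK, 14877, 17685 and 16501 CPM with ETS1 KD, and 12653, 13296 and 11031 CPM with NFKB2 KD. The fitted ratio was 1.76 for TWEAK against untreated, 1.02 for ETS1 KD against the treated control and 0.770 for NFKB2 KD against it. The same TWEAK-treated control libraries enter all of these ratios.

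VIM lies at chr10:17228241-17237593 (hg38, + strand, ENSG00000026025). An antisense gene, VIM-AS1, overlaps its start. VIM-AS1 had 1.35 to 1.71 counts per 1000 counts of VIM, and its own level followed that of VIM. It was at 14.3 ± 1.19 CPM without and 23.9 ± 0.883 CPM with TWEAK, a log2 fold change of 0.74, and at 18.7 ± 1.32 CPM in NFKB2 KD cells. Like VIM, it is given without a test, and the part of VIM reads in its counts was not tested. The strand setting of the counting is not given in the sources used here, and reads of the pair cannot be told apart without it. Of the other antisense or divergent genes at the members, ZEB1-AS1, ZEB2-AS1 and CD44-DT did not pass the test with TWEAK (adjusted p = 0.629 to 0.639), and CD44-AS1 and FN1-DT had too few counts to test.

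Across the 12 libraries, the genes with levels most like that of VIM were IL1B (Pearson's r = 0.986 on log2 CPM), G0S2 (0.984), TNIP2 (0.983), SLC8A1-AS1 (0.976) and FAM107B (0.970), out of 16878 genes. IL1B encodes the cytokine interleukin-1 beta, and TNIP2 a protein that binds regulators of NF-κB. These values mainly restate the 4 group levels and are given without a test. Among the members, CD44 (0.764), CDH2 (0.660) and TWIST1 (0.601) were nearest to VIM, ZEB2 (0.359), SNAI1 (0.212) and ZEB1 (0.181) were far from it, and FN1 (-0.679) and SNAI2 (-0.918) ran the opposite way. SNAI2 stood at place 16860 in that order.

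SNAI2, which encodes the repressor SLUG, was the member that passed the test for TWEAK, and it was lower. Its levels were 45.2, 43.95 and 52.9 CPM in untreated cells and 25.4, 28.2 and 28.1 CPM with TWEAK, so that every treated library was below every untreated one. The log2 fold change was -0.80 (SE 0.121, adjusted p = 0.00339), a ratio of 0.575. With TWEAK, SNAI2 was at 32.0, 28.3 and 28.9 CPM in ETS1 KD cells and at 32.3, 40.5 and 35.6 CPM in NFKB2 KD cells. The NFKB2 KD values lay between the untreated and the treated controls without overlap, as those of VIM did from the other side. Of all genes tested, 6.87% did not overlap between NFKB2 KD and the treated control. The share that also lay apart from the untreated controls was not counted. Against the treated control the SNAI2 difference was 0.41 on the log2 scale (SE 0.121) and missed the threshold (edgeR adjusted p = 0.766). SNAI2 was called with TWEAK in all 14 alternative settings, with adjusted p between 1.75e-07 and 0.0253.

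SNAI1, which encodes SNAIL, the closest relative of SLUG here, was barely detected. It had 7, 14 and 14 counts in the untreated libraries and 8, 34 and 20 with TWEAK. In ETS1 KD cells it had 13, 8 and 31 counts and in NFKB2 KD cells 20, 21 and 15. The groups overlapped in every comparison, and the log2 fold change with TWEAK was 0.62 (SE 0.492, adjusted p = 0.657). Counting error and spread between replicates were not separated in that SE. TWIST1, a basic helix-loop-helix factor, was at 20.1, 20.9 and 24.1 CPM in untreated cells and at 29.0, 32.3 and 33.8 CPM with TWEAK. The groups did not overlap, and the log2 fold change of 0.55 (SE 0.178) missed the threshold (adjusted p = 0.138). In ETS1 KD cells TWIST1 was at 28.6, 27.1 and 27.5 CPM, and in NFKB2 KD cells at 25.6, 44.1 and 27.5 CPM, a difference from the treated control of 0.03 on the log2 scale that was -0.26 without NFKB2 KD replicate 2.

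The zinc finger and homeobox factors ZEB1 and ZEB2 varied mostly between replicates. ZEB1 was at 44.9, 54.5 and 15.8 CPM without and at 52.6, 43.5 and 30.2 CPM with TWEAK. The log2 fold change was 0.13 (SE 0.374, adjusted p = 0.927), and it was -0.24 without untreated replicate 3 and -0.06 without TWEAK-treated replicate 1. In the KD groups ZEB1 was at 36.9, 57.6 and 33.5 CPM (ETS1 KD) and 56.3, 36.0 and 55.3 CPM (NFKB2 KD). ZEB2 was at 82.0, 92.5 and 68.2 CPM without and at 103, 92.4 and 121 CPM with TWEAK (log2 0.38, SE 0.203, adjusted p = 0.438). Its values in ETS1 KD cells were 71.4, 99.6 and 92.4 CPM, and in NFKB2 KD cells 98.1, 58.9 and 99.97 CPM. No group of either gene was apart from another.

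FN1 varied widely between replicates. Its levels were 1237, 1273.5 and 2785 CPM in untreated cells and 412, 889 and 1078 CPM with TWEAK. All 3 treated libraries were below the untreated ones, but the replicates of a group differed by up to 2.76 times. The log2 fold change of -1.16 (SE 0.437) missed the threshold (edgeR adjusted p = 0.217). In ETS1 KD cells FN1 was at 773, 480.1 and 943 CPM, within the range of the treated controls. Cells with NFKB2 KD had 582, 1609.6 and 1156 CPM of it, a range that overlaps both control groups.

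CD44 was at 1125, 1097.5 and 1522 CPM without and at 1424.5, 1895 and 2314 CPM with TWEAK, so the groups overlapped. The log2 fold change of 0.59 (SE 0.177) missed the threshold (edgeR adjusted p = 0.108). It was called in 6 of 14 alternative settings, whose adjusted p ran from 0.00618 to 0.406, DESeq2 (0.0428) and the fit without TWEAK-treated control replicate 1 (0.0323) among them. In ETS1 KD cells CD44 was at 2232, 2096.5 and 2659 CPM and in NFKB2 KD cells at 1479, 1519 and 1702 CPM. CDH2 was at 67.2, 66.7 and 82.6 CPM without and at 73.5, 80.6 and 93.0 CPM with TWEAK (log2 0.19, SE 0.124, adjusted p = 0.56). ETS1 KD cells held 94.9, 95.8 and 111 CPM of it and NFKB2 KD cells 74.0, 76.0 and 80.2 CPM. The panels of CPM values show every library.

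**Figure D2:**
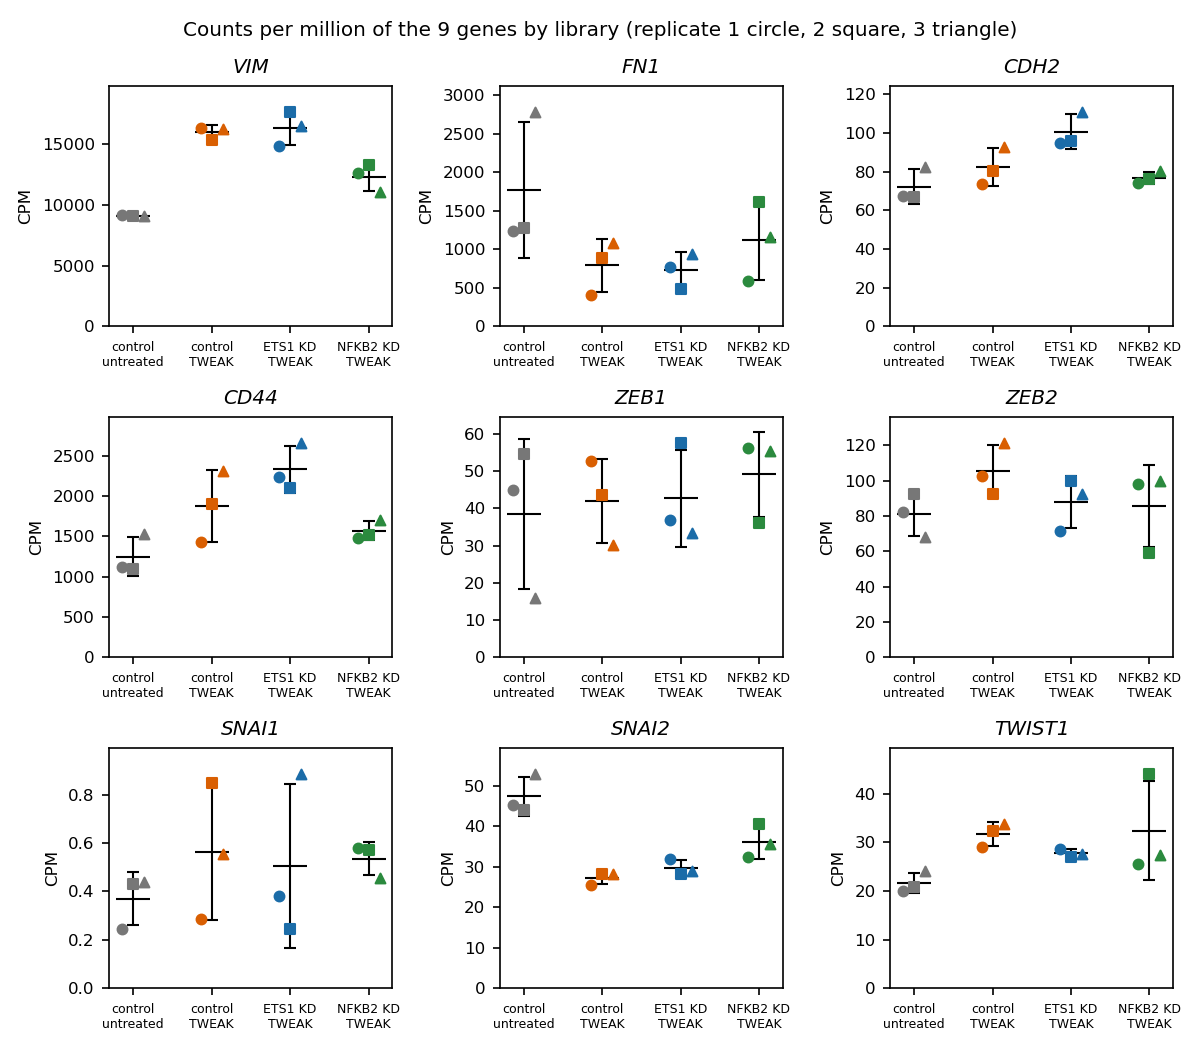
CPM (y axes, TMM-scaled, each starting at 0) of the 9 genes in each RNA-seq library, by group (x axes). Symbols are replicates 1 to 3, and the bar and whiskers are the mean and SD. VIM and TWIST1 are higher, and SNAI2 is lower, in every treated library than in any untreated one. FN1, ZEB1 and SNAI1 spread widely within groups.

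With TWEAK, 1 of the 8 members other than VIM was called, SNAI2, and it was lower. The call rate among all 16879 genes tested was 3.08% (1.55% higher and 1.53% lower). Before adjustment, 4 of the 8 had p under 0.05 in edgeR's test (FN1, CD44, SNAI2 and TWIST1), and DESeq2 called 2, SNAI2 and CD44. FN1, SNAI2 and TWIST1 had groups that did not overlap, which held for 22.5% of all genes tested. Their directions were mixed, since FN1 and SNAI2 were lower and CD44 and TWIST1 higher. The plot of fold changes gives all members.

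No member was called for ETS1 KD against control, where 1.39% of all genes were (0.255% higher and 1.13% lower), and DESeq2 called 0. CDH2 was the 1 of 8 with p under 0.05 (log2 0.29, SE 0.124, edgeR adjusted p = 0.372), and its 3 ETS1 KD libraries were above the 3 controls. Of all 16879 genes tested, 2022 had p under 0.05. SNAI2 and TWIST1 also did not overlap the controls, with small differences (log2 0.13 and -0.19), beside 20.3% of all genes without overlap. No member was called for NFKB2 KD against control either, where 0.0296% of genes were and DESeq2 called 0 members. SNAI2 was the 1 of 8 with p under 0.05 and without overlap. Of all genes, 660 had p under 0.05 and 6.87% were without overlap.

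The 2 KDs were then set against each other, which leaves out the control libraries. No member was called (1.94% of all genes were, 0.533% higher and 1.4% lower in ETS1 KD). In edgeR's test 4 of 9 had p under 0.05, as had 2616 of the 16879 genes tested. VIM was higher in ETS1 KD than in NFKB2 KD cells by 0.41 on the log2 scale (SE 0.104, edgeR adjusted p = 0.0683), a ratio of 1.33, with all 3 libraries above. DESeq2 called it (adjusted p = 0.0133), and over its 14 alternatives the adjusted p ran from 0.0133 to 0.295. CDH2 (log2 0.39, SE 0.124, adjusted p = 0.14) and CD44 (0.57, SE 0.177, adjusted p = 0.13) were also higher in each ETS1 KD library, and SNAI2 was lower in each (-0.28, SE 0.121, adjusted p = 0.276). Groups without overlap made up 19% of all genes in this comparison.

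**Figure D3:**
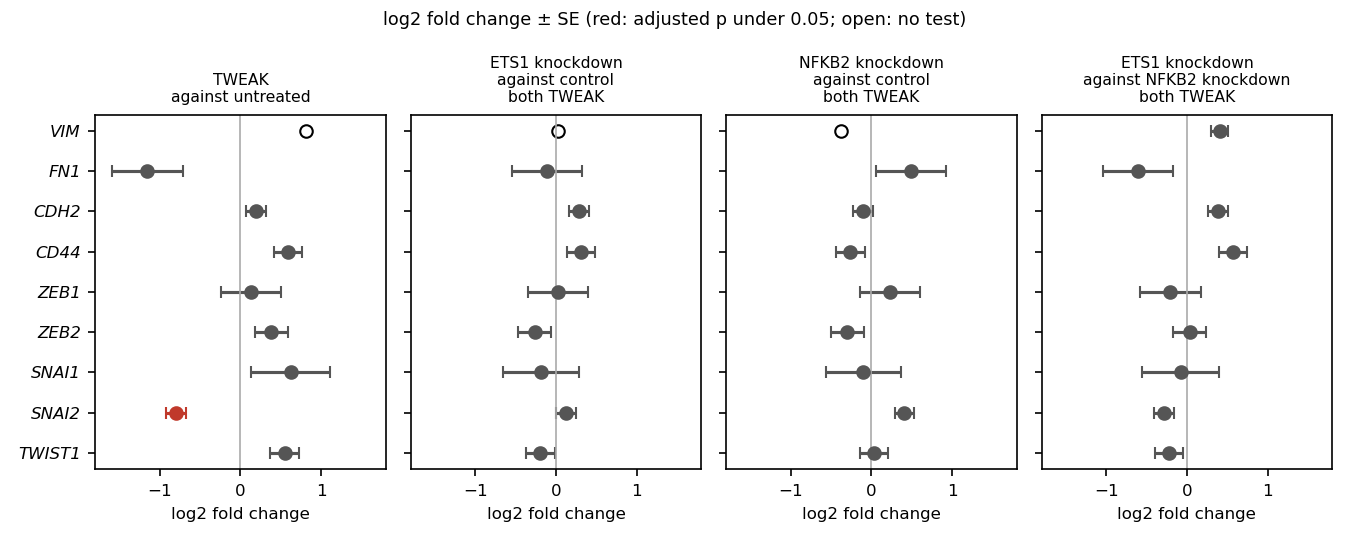
log2 fold change with its SE (x axes) of the 9 genes (rows) in 4 comparisons. The filled point in red is the only call at an adjusted p under 0.05, SNAI2 with TWEAK (-0.80), and open points are VIM where it was not tested. VIM (0.41), CDH2 (0.39) and CD44 (0.57) lie above 0 for ETS1 KD against NFKB2 KD.

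Levels can be compared between genes only per length. On the TPM scale, medians over the 12 libraries were 10100 for VIM, 637 for CD44, 224 for FN1, 51.4 for TWIST1, 36.4 for CDH2, 36.2 for SNAI2, 19.2 for ZEB1, 13.4 for ZEB2 and 1.03 for SNAI1. VIM (6610 to 12400 TPM) was above and SNAI1 (0.514 to 1.91 TPM) below all others in every library. CD44 (417 to 980) and FN1 (87.3 to 627) overlapped. The ranges of TWIST1 (37.6 to 83.3), CDH2 (29.3 to 47.6) and SNAI2 (28.2 to 62.5) overlapped, as did those of ZEB1 (7.09 to 25.7) and ZEB2 (8.5 to 18.2). The mean TPM of TWIST1 was above that of CDH2 in each group. The order of the low genes depends on the length used. Per kb of the MANE transcript, a single curated transcript per gene, ZEB2 (10.1 CPM per kb) was above ZEB1 (7.49), and CDH2 (20.3) above TWIST1 (16.8).

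FN1 and ZEB1 mostly moved against each other within groups. In each of the 4 groups the library with the most FN1 was the one with the least ZEB1 (replicate 3 of both control groups and of ETS1 KD, replicate 2 of NFKB2 KD). The library with the least FN1 had the most ZEB1 in the treated groups. In untreated cells it did not, since FN1 was lowest in replicate 1 and ZEB1 highest in replicate 2. The highest FN1 value of a group was 1.96 to 2.76 times its lowest, and that of ZEB1 1.56 to 3.45 times. This was noticed after the values were seen and is given without a test. Over the longest annotated transcript of each gene, ZEB1 has the lowest GC content of the members (38.4%) and FN1 one of 42.2%. The part of base composition in the pattern was not tested.

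Of 29 other mesenchymal effectors, 27 could be tested, of which 3 rose and 2 fell with TWEAK, where 1.55% of all genes tested rose and 1.53% fell. CCN1, a matricellular protein (log2 1.21, SE 0.168, adjusted p = 0.00174), and TPM1, a tropomyosin (0.58, SE 0.101, adjusted p = 0.00756), were among those that rose, while MYL9, a myosin light chain (-0.83, adjusted p = 0.0375), and PDGFRA, a growth factor receptor (-1.46, adjusted p = 0.0477), fell. PDGFRA, which is also the 1 proneural gene of 8 tested that fell, was at a mean log2 CPM of -0.40 and is named after its values were seen, as are the epithelial genes CDH3 and CLDN7 below. The median log2 fold change of the list was -0.23, against 0.02 for all genes. Of 16 other transcription factors of the transition, 9 were tested and 1 rose, KLF4 (0.90, SE 0.14, adjusted p = 0.00406). The 7 tested of 13 intermediate filament genes, the relatives of VIM, gave no call (median -0.22), at a background of 3.08%.

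Among 27 regulators and markers of mesenchymal glioma, 26 were tested, of which 2 rose and 1 fell with TWEAK (1.55% and 1.53% of all genes). RELB, the NF-κB partner of p52 (log2 1.36, SE 0.152, adjusted p = 0.000437), and PLAUR, the urokinase receptor (0.69, adjusted p = 0.00474), rose, while CHI3L1, a secreted glycoprotein used as a mesenchymal marker, fell (-2.20, SE 0.482, adjusted p = 0.0282). In the remaining lists, read against the same shares, single genes were called. Of 12 tested epithelial genes 1 fell, the cadherin CDH3 (-1.98, SE 0.301, adjusted p = 0.00342, mean log2 CPM -0.32). In the TGF-β list 1 of 19 tested genes rose, ID3, an inhibitor of helix-loop-helix factors (0.79, adjusted p = 0.0108). Of 17 tested genes of hyaluronan and CD44 partners, 1 rose, HAS2, a hyaluronan synthase (1.15, SE 0.231, adjusted p = 0.0175).

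For ETS1 KD against control, where 0.255% of all genes were higher and 1.13% lower, 2 of 26 mesenchymal glioma genes, 1 of 19 TGF-β genes and 1 of 17 hyaluronan and CD44 genes were higher, and 1 of 12 epithelial genes was lower. TIMP1, a metalloproteinase inhibitor (0.77, adjusted p = 0.0108), EMP1, a membrane protein (0.69, adjusted p = 0.00738), ID1, a relative of ID3 (0.80, adjusted p = 0.0202), and HAS1, another hyaluronan synthase (0.85, SE 0.129, adjusted p = 0.00461), were higher than in the treated control, and the tight junction gene CLDN7 was lower (-1.48, adjusted p = 0.00403). For NFKB2 KD against control no gene of these lists was called, where 5 genes in all were. Against NFKB2 KD, where 0.533% of all genes were higher and 1.4% lower, 1 of 27 effectors, 2 of 26 mesenchymal glioma genes and 1 of 17 hyaluronan and CD44 genes were higher, and 2 of 12 epithelial genes were lower. ETS1 KD cells held more CCN1, TIMP1, ANXA2 and HAS1 (log2 0.58 to 0.80) and less CDH3 (-2.02, adjusted p = 0.0102) and CLDN7 (-1.08, adjusted p = 0.0261).

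Leaving out 1 library at a time separated these calls. CCN1, KLF4, RELB and PLAUR (TWEAK) and HAS1 (ETS1 KD against control) held without any 1 of 6 libraries. MYL9 and CHI3L1 lost their call with each of the 6 (adjusted p = 0.0717 to 0.167 and 0.0547 to 0.137), and so did ID1 (0.0691 to 0.127). TPM1 lost it without untreated replicate 2 (0.05). ID3 lost it without untreated replicate 1 or 2 or TWEAK-treated replicate 3 (up to 0.0823), and HAS2 without untreated replicate 1 or 3 or treated replicate 3 (up to 0.0915). For ETS1 KD against control, TIMP1 lost it without control replicate 1 or 2 or KD replicate 1 or 3 (up to 0.0788), and EMP1 without control replicate 2 or KD replicate 2 or 3 (up to 0.0671). Between the KDs, CCN1 kept its call only without ETS1 KD replicate 2 (otherwise up to 0.222) and HAS1 only without NFKB2 KD replicate 1 (up to 0.185). TIMP1 lost it without ETS1 KD replicate 1 or 3 or NFKB2 KD replicate 3 (up to 0.0697), and ANXA2 without any 1 ETS1 KD library or NFKB2 KD replicate 3 (up to 0.149). For PDGFRA, CDH3 and CLDN7 no library was left out.

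Of 5 fibroblast and mural markers, 3 could be tested, and LUM was lower with TWEAK (-1.04, SE 0.240, adjusted p = 0.0351), a call that held only without untreated replicate 3. The 5 together were at 151 to 528 CPM in untreated and 66.5 to 232 CPM in treated control cells, and COL1A1 (37.8 to 466 CPM over the 12 libraries) and PDGFRB (24.2 to 66.1 CPM) had the highest levels. LUM was at 2.67 to 9.09 CPM, DCN at 0.0291 to 0.283 CPM and COL3A1 at 0 to 0.319 CPM. The FN1 values also lay lower in the treated libraries, and the part of these markers in it was not tested.

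Peaks of p52 were counted where they overlapped a window of 15 kb on either side of an annotated start site of a member. In untreated cells 0 of 9 members had one in either library, in lists of 714 and 452 peaks, and in both libraries 0.083% of all tested genes had one. With TWEAK, 3 members (VIM, ZEB1 and ZEB2) had a peak in both libraries, against 11.7% of tested genes. The lists held 3579 and 11761 peaks, and the longer one added CD44 and FN1. The members have between 1 and 46 annotated start sites (the median of tested genes is 6), so their windows differ in size, from 30 kb for SNAI1 to 155 kb for ZEB2. The count is a description, and nothing is read from its distance to the background.

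At ZEB1, ZEB2 and CD44 a p52 peak came back at the same place. The ZEB1 summit lay 0.57 kb upstream of the start of the MANE transcript (ZEB1 is at chr10:31318495-31529814, + strand), where the divergent ZEB1-AS1 has an exon. It was found in both TWEAK-treated control libraries (fold enrichment 12.4 and 14.9), in ETS1 KD guide 1 replicate 2 (8.1) and in both guide 2 libraries (9.5 and 6.6). The ZEB2 summit lay 6.27 kb inside the gene (chr2:144364364-144521057, - strand), in an intron of the MANE transcript that is exonic in other transcripts. It was in the same 5 libraries, with fold enrichments of 5.9 and 13.7 in the controls and 6.6 to 8.1 in the KD libraries. The CD44 site lay 52.06 kb inside CD44 (chr11:35138882-35232402, + strand), in an intron. It was in control TWEAK replicate 2 (14.1), guide 1 replicate 2 (12.1) and both guide 2 libraries (22.4 and 15.7), but not in control TWEAK replicate 1. Control TWEAK replicate 2 alone also had CD44 intron peaks nearer the start, at 2.32 and 6.04 kb (ranks 7461 and 5066 of 11761). Fold enrichments are each library's own scale and are not compared between libraries. ETS1 KD guide 1 replicate 1, with the shortest treated list (1387 peaks), had no peak in the window of a member, so guide 1 had 0 members in both libraries (5.1% of tested genes), and guide 2 had 3 (12%).

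The bases around the ZEB1, ZEB2 and CD44 summits are shown because they share a motif. Each line below gives 81 bases of hg38 (+ strand), centred on the summit in control TWEAK replicate 2, with every match on either strand to the wide κB motif in capitals (GGG, any 5 bases, CC).
ZEB1, chr10:31318609-31318689: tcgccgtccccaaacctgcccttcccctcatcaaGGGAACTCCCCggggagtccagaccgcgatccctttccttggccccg
ZEB2, chr2:144513808-144513888: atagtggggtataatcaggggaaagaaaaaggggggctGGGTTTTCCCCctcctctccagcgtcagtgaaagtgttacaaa
CD44, chr11:35191189-35191269: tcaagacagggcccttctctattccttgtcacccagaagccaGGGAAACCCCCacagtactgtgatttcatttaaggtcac

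At ZEB1, ZEB2 and CD44 the summits sat on or near the motif. Over all libraries with the peak, they were 0 to 4 bases from it at ZEB1, 0 to 14 at ZEB2 and 0 to 7 at CD44. The stricter κB consensus matched at ZEB1 and CD44 and not at ZEB2. Among all 81-base windows on p52 summits, the wide motif was in 68.9% (TWEAK replicate 1) and 76.8% (replicate 2), and the κB consensus in 53.6% and 55.6%. In windows of the same length just upstream of 12698 start sites they were in 41.8% and 1.65%. A match is a description of the letters and not of binding.

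At VIM the p52 peaks of the TWEAK-treated controls were of low rank (2791 of 3579 in replicate 1 and 7745 of 11761 in replicate 2). They lay beyond the end of the gene, with summits 10.97 kb (replicate 1) and 11.66 kb (replicate 2) from its start. The summits did not coincide, but the peaks overlapped. That of replicate 1 (chr10:17238752-17239487) lay inside the broader one of replicate 2 (chr10:17238593-17240120). Replicate 2 had 2 more weak peaks, 10.14 kb upstream and 5.08 kb inside the gene. ETS1 KD guide 2 replicate 1 had a peak at 10.38 kb that overlapped both of the downstream control peaks. It was close to the bottom of its list (4197 of 4252). No p52 peak overlapped the VIM start. The FN1 peak (replicate 2 only, 61 bases upstream of the start) ranked 10214 of 11761. SNAI1, SNAI2, CDH2 and TWIST1 had none within 15 kb, though replicate 2 had a peak 77.46 kb inside the long annotated TWIST1 gene. Sites outside the windows were picked after their values were seen. A p52 peak 52.9 kb upstream of SNAI1 (chr20:49929927-49930239 in control TWEAK replicate 1) was in all 6 TWEAK-treated p52 libraries, with fold enrichments of 11.2 to 26.1. A p52 peak 143.5 kb from the CD44 start and beyond its end was also in all 6 (22.7 to 85.4). So was a weaker one 67.63 to 67.82 kb upstream of SNAI1 (3.2 to 13.5), which ranked 1386 of 1387 in guide 1 replicate 1. ETS1 peaks overlapped its control TWEAK replicate 2 interval in both TWEAK-treated ETS1 libraries and in untreated replicate 1 (rank 4306 of 4372). Nothing ties these sites to either gene. The map of summits shows the p52 and ETS1 peaks.

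**Figure D4:**
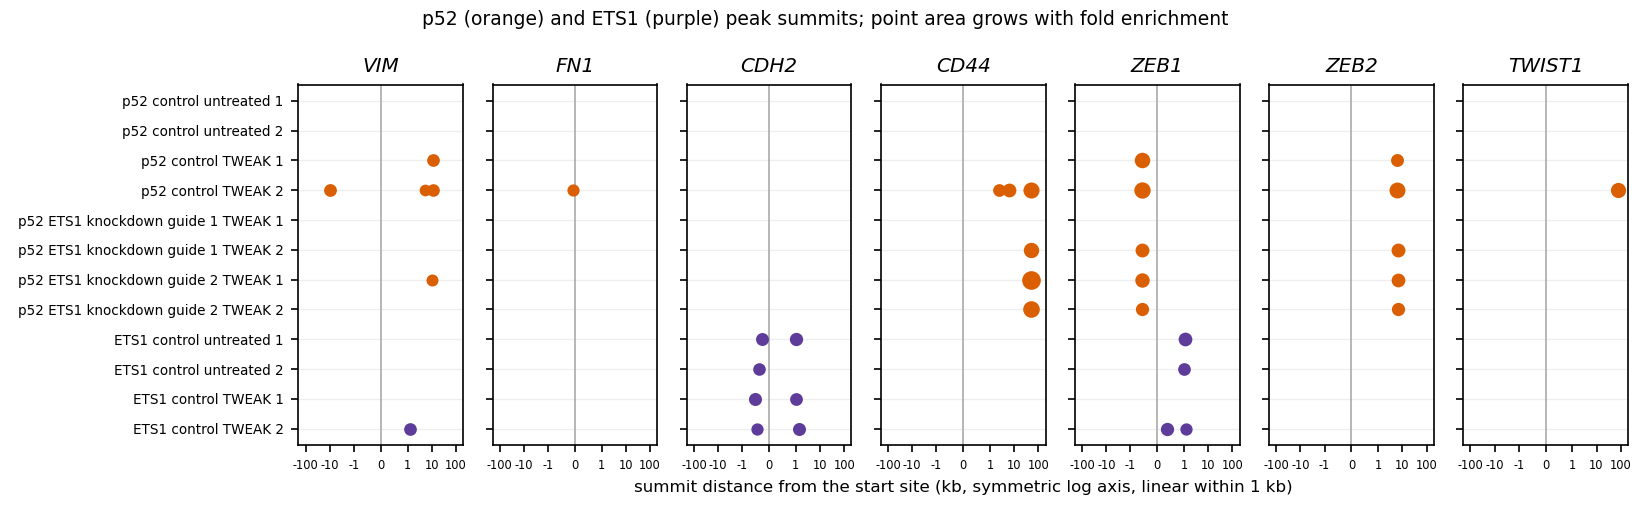
Summits of p52 (orange) and ETS1 (purple) peaks at 7 members, by library (rows, numbered by replicate), against the distance from the MANE start site in the direction of transcription (x axes, kb, symmetric log scale that is linear within 1 kb). Point area grows with fold enrichment. ZEB1 (0.57 kb upstream), ZEB2 (6.27 kb inside) and CD44 (52.06 kb inside) repeat at 1 place with TWEAK, and CDH2 has ETS1 peaks in all 4 ETS1 libraries.

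ETS1 peaks were at CDH2 and ZEB1. In untreated cells these 2 of 9 members had one in both libraries (8.64% of tested genes did), and with TWEAK CDH2 alone did (12.2% of tested genes). CDH2 lies at chr18:27932879-28177946 (- strand). Its peak lay upstream of the start site in all 4 ETS1 libraries, with summits 257 and 391 bases upstream without TWEAK and 509 and 446 bases upstream with it. A further peak about 1 kb inside the gene was in 3 of the libraries. At ZEB1 the summits were 1.05 and 1.01 kb inside, in an intron, without TWEAK. With TWEAK, replicate 1 had none, and replicate 2 had 2, at 0.38 and 1.21 kb. VIM had an ETS1 peak in TWEAK replicate 2 only, in a coding exon that VIM-AS1 also overlaps (1.24 kb from the start, rank 1315 of 3145). The other 6 members had none within 15 kb of a start site. The best ranked of these ETS1 peaks was that of ZEB1 in untreated replicate 1, at 662 of 4372.

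The CDH2 sequence that spans the 4 upstream summits is given because it is where ETS1 peaks recurred at a member. It is the + strand of hg38 while CDH2 is on the other strand, and capitals mark GGAA, the core of ETS motifs, on either strand.
CDH2, chr18:28177377-28177649: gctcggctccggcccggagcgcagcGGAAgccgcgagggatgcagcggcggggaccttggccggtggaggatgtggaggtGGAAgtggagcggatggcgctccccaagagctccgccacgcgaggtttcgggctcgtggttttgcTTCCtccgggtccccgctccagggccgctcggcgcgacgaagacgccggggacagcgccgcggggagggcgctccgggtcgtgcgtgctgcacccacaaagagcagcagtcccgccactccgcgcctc
ZEB1 intron, chr10:31320215-31320275: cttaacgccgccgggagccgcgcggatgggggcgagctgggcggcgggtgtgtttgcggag

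The CDH2 stretch of 273 bases held GGAA at 3 places and neither of the longer forms CCGGAA and CAGGAA, and the ZEB1 stretch of 61 bases held none of them. GGAA was in 89.2% of 273-base windows on the ETS1 summits of untreated replicate 1, and in 93.9% of windows of that length upstream of start sites. In 61-base windows it was in 47.9% and 48.4%. For CCGGAA the shares were 14.6% and 26.3% at 273 bases. So these letters were not more frequent at the ETS1 summits than upstream of start sites. The GC content of the printed stretches was 73.3% (CDH2) and 75.4% (ZEB1).

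RNA Pol II peaks ranked high at VIM and CD44 in all 8 libraries. A peak within 15 kb of a start site was in both libraries for 7 of 9 members in untreated cells, 9 with TWEAK, 9 with ETS1 KD and 7 with NFKB2 KD, and for 61.5%, 70.7%, 64% and 55.2% of tested genes. Within 1 kb of the MANE start, 6 members (VIM, FN1, CD44, ZEB2, SNAI1 and SNAI2) had a peak in all 8 libraries, against 33.6% of tested genes with such a transcript. VIM lay under a broad peak of 12.4 to 15.4 kb, which covered 99.8% to 100% of the gene and ranked 71 to 124 in lists of 11175 to 44672 peaks. CD44 ranked 113 to 251 and SNAI2 391 to 868. ZEB1 had ranks of 7033 to 27767 and no peak in untreated replicate 1. CDH2 (885 to 28855) had no peak in NFKB2 KD replicate 2 and TWIST1 none in untreated replicate 1. Since the lists differ in length, ranks are best read as a share of the list, as in the plot of ranks.

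**Figure D5:**
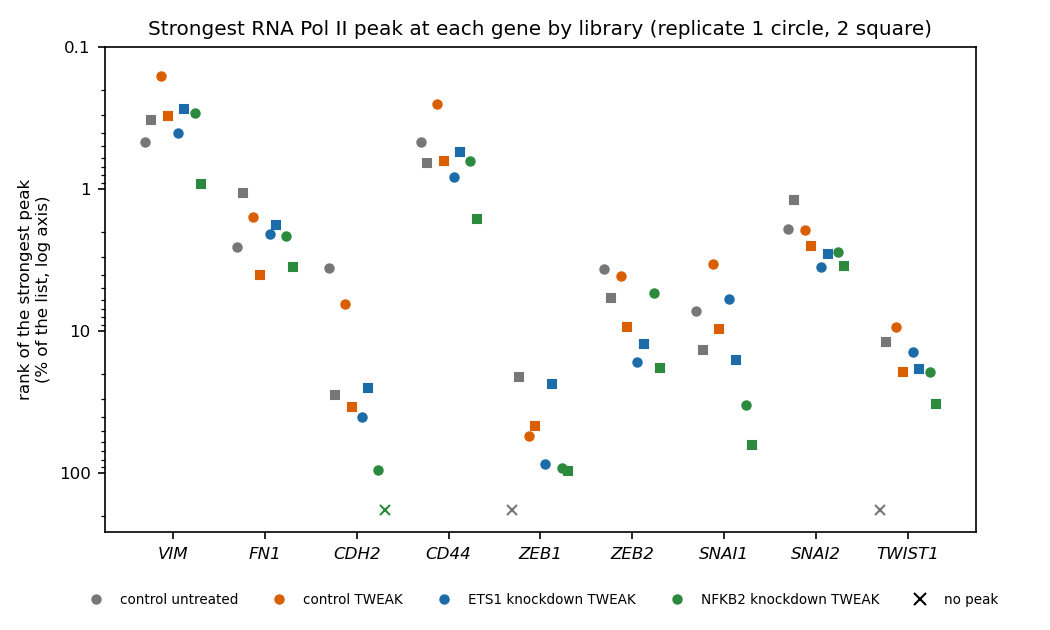
Rank of the strongest RNA Pol II peak at each of the 9 genes, as a percent of the peaks in the library's list (y axis, log scale, stronger at the top), by gene (x axis) and condition (colour). Circles and squares are replicates 1 and 2, and a cross marks a library with no peak. VIM and CD44 lie within the top 2% in all 8 libraries, while ZEB1 lies below the top 20% wherever it has a peak.

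FN1 was the member whose RNA Pol II peaks differed most with TWEAK. They covered 26.3% and 38.2% of the gene in the untreated libraries, as 33 and 47 peaks at the gene or its window, and 5.19% and 1.27% with TWEAK, as 16 and 4 peaks. Both treated libraries were thus lower than both untreated ones, which held for 4.43% of 16873 tested genes. Genes without cover in an untreated library cannot meet this rule, though they are among those 16873. No test was run with 2 libraries a condition. List length was 24848 (untreated replicate 1), 38307 (untreated replicate 2), 44672 (TWEAK replicate 1) and 27056 (TWEAK replicate 2). The part of list length and of sequencing depth in the FN1 cover was not tested. In ETS1 KD the cover was 5.63% and 3.30% and in NFKB2 KD 8.18% and 2.22%. FN1 was picked out after its values were seen. CD44 (93.0% and 91.8% without, 99.7% and 95% with TWEAK) was higher in both treated libraries. So were SNAI1 (3.66% and 3.25%, then 4.45% and 4.27%), TWIST1 (0 and 0.309%, then 0.656% and 0.332%) and 9.52% of tested genes. At SNAI1 and TWIST1 the cover was that of 1 peak a library, 0.3 to 0.7 kb long. TWIST1 had none in untreated replicate 1. Small shifts of the edges of such a peak move these values. SNAI2, whose RNA fell, was under peaks for 64.1% and 91.4% of its length without and 83.2% and 62.8% with TWEAK, which overlap.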

How the data were processed

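The members and the gene lists were chosen with earlier results of these data known. For RNA-seq, the authors used Trimmomatic for trimming, STAR for alignment to hg38 and featureCounts for counting (versions not given in the sources used here), and deposited whole-number counts per gene without normalisation. The labels and the paper name different library kits, and the strand setting is not given in the sources used here. Of 62649 distinct identifiers, 62625 matched GENCODE release 44, 0 rows named no gene and 0 value columns were left unused. Genes kept by filterByExpr were tested with edgeR 4.0.16 (R 4.3.3) with TMM scaling. A single quasi-likelihood model held the 4 groups without covariates, with Benjamini-Hochberg adjustment over all genes at 0.05. log2 CPM used a prior count of 2. The 3 replicates of a group are biological per the paper's methods, and none differed by as little as counting noise. DESeq2 1.42.0, other scalings, filters, thresholds, leave-one-out fits and a replicate block were alternatives, and a GC and length correction was added after the data were seen. The code was tested on simulated data.

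For ChIP-seq, the authors mapped reads with Bowtie2 to hg38, called peaks with MACS2 per library against input and deposited, for each peak, the fold enrichment ratio and −log10 p- and q-values. Peak lists hold no read counts, so depth is unknown, and values served only to rank peaks within a list. The 3 input samples were not analysed here. Overlaps of at least 1 bp were computed in Python 3.11.15, and sequences were read from hg38. Genes named beyond the members were ETS1, NFKB2, antisense and divergent genes at a member, the 5 genes most correlated with VIM, and up to 4 genes a list and comparison with an adjusted p under 0.05, a mean log2 CPM above 1 and the largest change. A called gene of the mesenchymal effector list and the sequences at the VIM p52 peaks are not reported here.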

Additional observations from a re-analysis of the deposited data

How the results depend on the processing

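With TWEAK, 1 member was called, and 2 with DESeq2 and with the replicate block (SNAI2 and CD44), 3 without a filter on low counts and at the study's threshold of p at most 0.05 and a fold of at least 1.5 (FN1, SNAI2 and CD44), and 3 with the GC and length correction, with or without the replicate block (TWIST1, SNAI2 and CD44). Leaving out each library gave 1 to 2, the 2 without TWEAK-treated control replicate 1. For ETS1 KD against NFKB2 KD, 0 were called, and 1 with DESeq2 and with the GC and length correction (VIM), 2 without a filter (FN1 and CD44), and 3 with the replicate block, alone or with that correction (VIM, CD44 and CDH2). Neither KD gave a called member against control under any alternative run. The labels tie the replicate numbers to no shared batch or day, and not every same-numbered pair was alike. Deviations from the group mean of libraries with the same number correlated between -0.304 and 0.492 (median 0.165, 18 pairs). Those of libraries with different numbers correlated between -0.56 and 0.488 (median -0.095, 36 pairs). The deviations of a group sum to 0 for each gene, so the 2 medians are tied and are not an independent comparison. The block moved the calls over all genes from 520 to 657, 234 to 252, 5 to 4 and 327 to 361. Over all alternatives those counts ran from 171 to 1499 (TWEAK), 102 to 957 (ETS1 KD), 2 to 379 (NFKB2 KD) and 76 to 1304 (ETS1 KD against NFKB2 KD). The cause was not tested. The VIM share with TWEAK was 1.65% without mitochondrial genes against 1.59%, by construction of the denominator.

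With TWEAK, members with a p52 peak numbered 5 instead of 3 when either replicate sufficed or replicate 1 was left out (range 3 to 5). For ETS1 KD guide 1 they numbered 3 instead of 0 (range 0 to 3). ETS1 peaks were at 1 member instead of 2 in untreated cells at a −log10 q of at least 5, and with TWEAK at 2 instead of 1 in a window of 50 kb and at 3 when either replicate sufficed or replicate 1 was left out (range 1 to 3).

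Directions turned only for differences that were not called. With total counts, log2 fold changes for ETS1 KD against control were -0.014 for VIM (0.031 as reported), -0.023 for ZEB1 and -0.032 for VIM-AS1, and that of ZEB2 between the KDs was -0.044. With only the groups compared, VIM-AS1 was at -0.001. FN1 for ETS1 KD was at 0.003 with the replicate block and 0.067 with the GC and length correction and block. With the correction, TWIST1 for NFKB2 KD was at -0.025 (-0.033 with the block) and ZEB2 between the KDs at -0.018 (-0.019 with the block). With each library left out, the ranges were, for TWEAK, ZEB1 -0.24 to 0.474. For ETS1 KD they were VIM -0.035 to 0.082, FN1 -0.426 to 0.166, ZEB1 -0.26 to 0.212, SNAI1 -0.867 to 0.228 and VIM-AS1 -0.014 to 0.034. For NFKB2 KD they were CDH2 -0.178 to 0.017, SNAI1 -0.39 to 0.335 and TWIST1 -0.257 to 0.204. Between the KDs they were ZEB2 -0.173 to 0.139, SNAI1 -0.765 to 0.218 and TWIST1 -0.407 to 0.063. SNAI1 had 7 to 34 counts a library, and the part of depth in its wide ranges was not tested.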
